A study of Mus musculus with 8 samples.

Results

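The molecules described here are 8 surface proteins through which B cells exchange signals with T cells or show that they have been activated: Cd40, Cd80, Cd86, Icosl, Cd274, Pdcd1lg2, Cd83 and Cd69. They were chosen by name, and every probe set of the array whose only gene symbol is one of them was taken. That gave 15 probe sets, 3 for Cd40, 4 for Cd80, 2 each for Cd86 and Icosl and 1 for each of the others, among 45101 on the array, where 18193 genes are named. A probe set is a group of short oligonucleotides that together report 1 transcript. RNA was taken from B cells of the spleen, from Irf4 null mice (irf4-/-, n = 4 arrays) and of wild-type littermates (irf4+/+, n = 4 arrays), all C57BL/6 by label and 12 weeks old, with 1 array per sample and no treatment named for either genotype. Non-B cells had been removed with magnetic beads, so the preparations are bulk B cells with whatever cells the beads left behind. The sources used here do not say which part of Irf4 was deleted, nor whether different arrays came from different mice. The p-values therefore describe only how far these arrays scatter, and some of that scatter may be technical.

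A T cell needs a second signal besides antigen to become active, and B cells supply it. CD80 and CD86, of the B7 family, bind CD28 on the T cell for activation and CTLA-4 for restraint. ICOS ligand binds ICOS, which follicular helper T cells use, whereas PD-L1 (Cd274) and PD-L2 (Pdcd1lg2) bind PD-1 and dampen the T cell. CD40 carries the return message: CD40 ligand on the T cell engages it, and the B cell proliferates, switches antibody class and forms germinal centres. CD83 and CD69 appear on activated lymphocytes. Irf4 encodes a transcription factor that activated B cells need for class switching and plasma cell formation.

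In Irf4 null B cells Cd40 and Cd274 rose, and no member was called lower. Cd274 was 1.86 times as high as in wild type (95% interval 1.55 to 2.22) and the 3 Cd40 probe sets were 1.30 to 1.40 times as high. Neither PD-L2, the other PD-1 ligand, nor CD86, ICOS ligand or CD83 passed the test. Cd69 was lower and the brightest Cd80 probe set was higher without overlap between genotypes, but neither passed. Of the 15 probe sets, 13 were bright enough to be tested. With limma 4 of these 13 passed upward and 0 downward (adjusted p below 0.05). Over all 27022 probe sets tested 2.01% were called higher and 1.51% lower. The 4 calls come from 2 genes, since probe sets of 1 gene report the same transcripts. The median log2 fold change of the 13 was 0.31, against 0.003 over all probe sets, and 10 of the 13 were positive. Genes with several probe sets weigh more in these values. At 1 probe set per gene the median was 0.19 for the members, against 0.02 over all genes. In bulk RNA of this kind, fewer cells of a type cannot be told apart from less RNA per cell.

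Signals are MAS5 intensities on a linear scale. A log2 fold change is the Irf4 null mean less the wild-type mean of log2(signal + 16), with its standard error from limma (n = 4 and 4), and an adjusted p is Benjamini-Hochberg over all probe sets tested. The added 16 makes folds of dim probe sets smaller. A probe set was left out of the test as dim when its mean over the 8 arrays lay in the lowest 40%, which corresponds to a signal of 42.9. Signals of different probe sets are not compared with each other, because each binds RNA with its own strength, so the members are not put in an order of level.

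Before the members, the labels and the arrays were checked. Irf4 read 285, 259, 244 and 315 on the Irf4 null arrays, against 2035, 1720, 1779 and 2341 on the wild-type arrays, a log2 fold change of -2.76 ± 0.12 (limma, adjusted p = 4.61e-06). Every Irf4 null value lay below every wild-type value. The summed signal of 7 B cell markers was 68242 to 74844 in Irf4 null and 66389 to 77954 in wild type. Of the 7, 0 were called (limma; 0 at an unadjusted p below 0.05). These sums compare the genotypes and do not show how pure the preparations were. Xist, the RNA that silences an X chromosome in females, split the arrays another way, with 17119 to 19652 on Irf4 null array 1 and wild-type arrays 1, 3 and 4, and 49.2 to 94.8 on Irf4 null arrays 2, 3 and 4 and wild-type array 2. Markers of other blood cells moved with this split. The mean of 65 such markers was 8.05 to 8.39 (log2) on the 4 Xist-high arrays and 8.99 to 9.71 on the 4 Xist-low arrays. Each member is therefore also given with the Xist class as a term in the fit. The members' values on every array are drawn in the plot of signals by genotype.

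**Figure D1:**
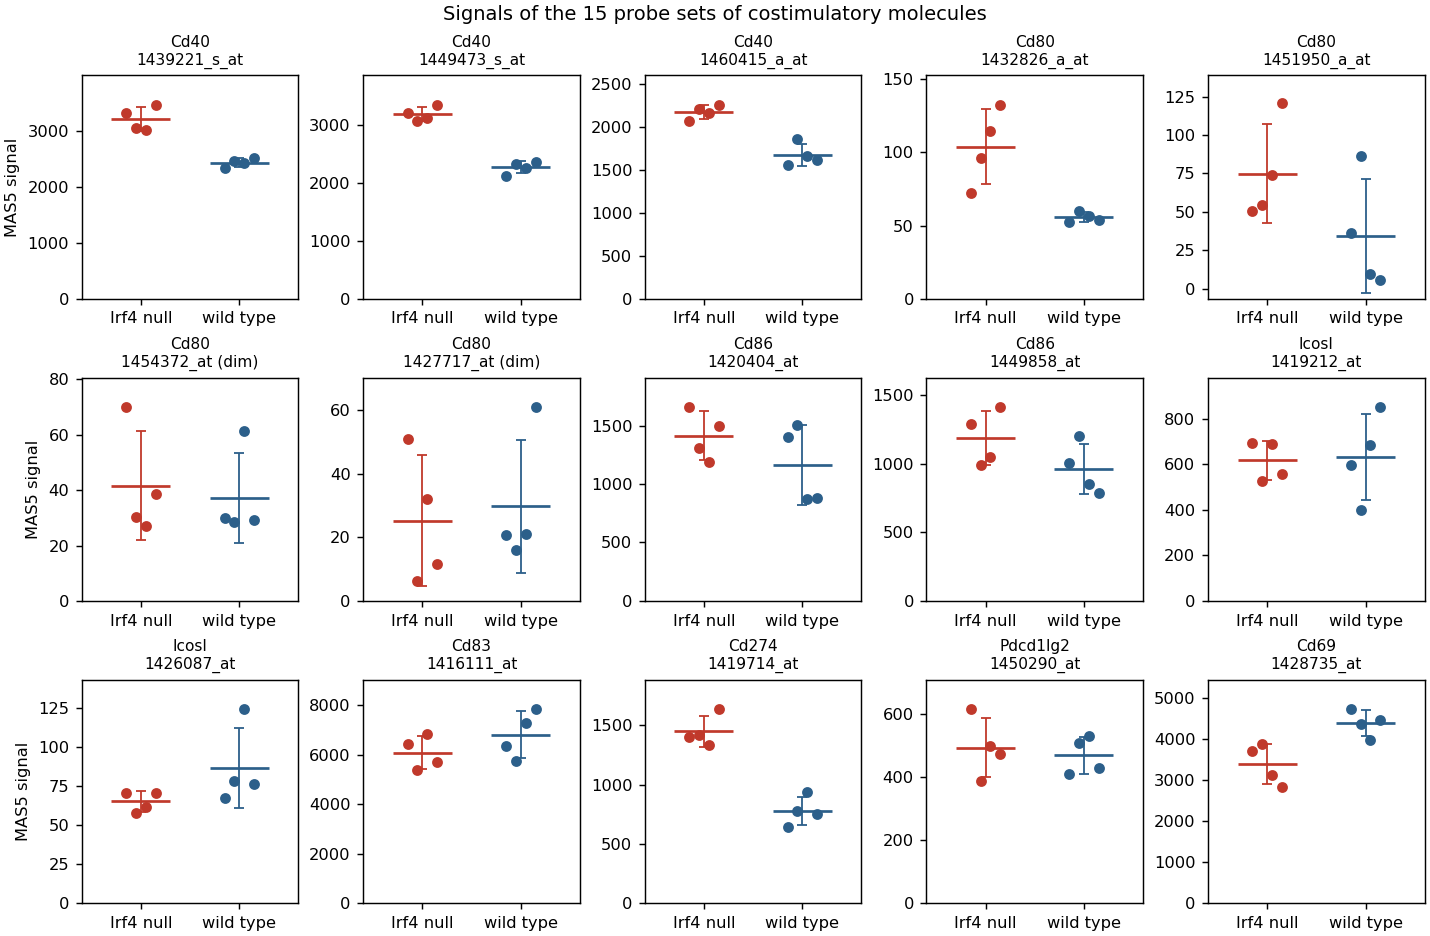
MAS5 signal (linear vertical axes that include 0, each probe set on its own scale) of the 15 probe sets. Points are arrays, Irf4 null on the left of each panel and wild type on the right, with mean and SD (n = 4 each); the 3 Cd40 probe sets, Cd274 and Cd80 1432826_a_at separate the genotypes upward, and Cd69 downward.

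Cd40 encodes the receptor through which helper T cells license B cells. The probe set 1449473_s_at read 3213, 3076, 3117 and 3353 in Irf4 null, against 2124, 2325, 2267 and 2356 in wild type. The lowest Irf4 null array was thus well above the highest wild-type array. Its log2 fold change was 0.49 ± 0.07 (limma, adjusted p = 0.00289), with means of 3190 ± 123 and 2268 ± 103 (SD). The probe set 1439221_s_at gave 3311, 3051, 3012 and 3464 in Irf4 null and 2330, 2467, 2423 and 2506 in wild type, again without overlap, and rose by 0.40 ± 0.07 (limma, adjusted p = 0.0132). The third, 1460415_a_at, gave 2062, 2211, 2158 and 2257 in Irf4 null and 1561, 1852, 1665 and 1613 in wild type. It rose by 0.38 ± 0.08 (limma, adjusted p = 0.025), also without overlap. All 3 reports of this transcript therefore moved one way and by like amounts, and across the 8 arrays they correlated with each other at 0.91 to 0.99 (Pearson, description only, since all 3 share the genotype difference).

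The Cd40 rise was as large with the Xist-high term for 2 of its 3 probe sets. With that term 1.41% of all probe sets were called higher, and 1449473_s_at stood at 0.48 (limma, adjusted p = 0.0106), 1439221_s_at at 0.40 (adjusted p = 0.0345) and 1460415_a_at at 0.30 (adjusted p = 0.0884). Within the Xist-high arrays (1 Irf4 null, 3 wild type) the 3 values were 0.51, 0.45 and 0.35, and within the Xist-low arrays (3 Irf4 null, 1 wild type) 0.45, 0.36 and 0.25, in the same order of probe sets. None of these within-class values was called (limma, adjusted p from 0.106 to 0.547), and the lone array of a class is assumed to vary like the others. With the mean of the other-cell markers as a covariate 1449473_s_at stood at 0.49 (limma, adjusted p = 0.0115) and 1439221_s_at at 0.42 (adjusted p = 0.0292), while 1460415_a_at stood at 0.30 and was not called (adjusted p = 0.107). Without a variance trend in the model 1439221_s_at (adjusted p = 0.0602) and 1460415_a_at (adjusted p = 0.0786) were not called, whereas 1449473_s_at was (adjusted p = 0.0238). Without wild-type array 1 the probe set 1439221_s_at stood at 0.38 (limma, adjusted p = 0.0512).

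CD80 and CD86 share their receptors, and activated B cells raise both. Cd80 was dim throughout. Its probe set 1432826_a_at read 72.1, 96.4, 114 and 133 in Irf4 null, against 52.2, 59.8, 56.6 and 54.0 in wild type, so the genotypes did not overlap. The log2 fold change was 0.72 ± 0.20 and did not pass (limma, adjusted p = 0.0874). All 4 wild-type values lay close together, just above the dim level of 42.9, while the 3 Xist-low Irf4 null arrays were higher than the Xist-high one. With the Xist-high term the value was 0.55 (limma, adjusted p = 0.303). A second probe set, 1451950_a_at, read 50.6, 54.4, 73.8 and 121 in Irf4 null, against 36.4, 86.2, 9.13 and 5.39 in wild type. Here it is the Xist class, not the genotype, whose arrays do not overlap: the 4 Xist-low arrays ranged from 54.4 to 121 and the 4 Xist-high arrays from 5.39 to 50.6. The difference between genotypes was 1.08 ± 0.47 (limma, adjusted p = 0.266) and 0.51 ± 0.43 with the Xist-high term (adjusted p = 0.681). Markers of other blood cells were higher on the same Xist-low arrays. With the mean of those markers as a covariate 1432826_a_at stood at 0.59 ± 0.24 (limma, adjusted p = 0.309) and 1451950_a_at at 0.57 ± 0.48 (adjusted p = 0.674), both below their values without it. Without wild-type array 2, the one Xist-low wild-type array, this probe set passed at 1.52 (limma, adjusted p = 0.0357).

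The other 2 Cd80 probe sets were under the dim level and were not tested with limma. The probe set 1454372_at averaged 41.5 ± 19.7 in Irf4 null and 37.2 ± 16.2 in wild type (SD, n = 4 each; exact two-sided permutation test, p = 0.629). For 1427717_at the averages were 25.3 ± 20.5 and 29.7 ± 21.1, Irf4 null given before wild type (SD, n = 4 each; exact two-sided permutation test, p = 0.657). The smallest p this test can give with 4 against 4 is 0.0286. No difference was detected in these 2 probe sets.

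Cd86 gave clearer signals. Its probe set 1420404_at read 1662, 1312, 1188 and 1493 in Irf4 null, against 1402, 1506, 868 and 876 in wild type. Wild-type arrays 1 and 2 lay inside the Irf4 null range, and wild-type arrays 3 and 4 lay below it. The probe set 1449858_at read 1285, 993, 1051 and 1415 in Irf4 null and 1003, 1203, 848 and 789 in wild type, with wild-type arrays 3 and 4 again the lowest. Neither passed: the log2 fold changes were 0.31 ± 0.19 (limma, adjusted p = 0.446) and 0.30 ± 0.15 (adjusted p = 0.343). Their 95% intervals, from -0.10 to 0.73 and from -0.03 to 0.64, include 0 and also include a rise as large as that of Cd40. With the Xist-high term they stood at 0.26 (limma, adjusted p = 0.683) and 0.23 (adjusted p = 0.614). Within the Xist-high arrays the values were 0.69 and 0.55, and within the Xist-low arrays -0.18 and -0.08. This difference between the Xist classes, tested as an interaction, was 0.88 for 1420404_at (unadjusted p = 0.031, adjusted p = 0.624, limma) and 0.62 for 1449858_at (adjusted p = 0.677). Over all probe sets 0 interactions were called (limma; 2038 at an unadjusted p below 0.05, of which 1 belongs to a member).

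Icosl encodes the ligand of ICOS. The brighter probe set, 1419212_at, read 693, 526, 687 and 559 in Irf4 null, against 598, 397, 683 and 852 in wild type. All Irf4 null arrays lay inside the wild-type range, whose lowest array was the Xist-low one. The log2 fold change was 0.003 ± 0.20 (limma, adjusted p = 0.997), with an interval from -0.44 to 0.44. With the Xist-high term it stood at 0.26 ± 0.17 (limma, adjusted p = 0.567). Within the Xist-high arrays it was -0.02 and within the Xist-low arrays 0.54, each resting on a lone array of 1 genotype. The dimmer probe set, 1426087_at, averaged 65.0 ± 6.69 in Irf4 null and 86.5 ± 25.8 in wild type (SD, n = 4 each), a log2 fold change of -0.31 ± 0.21 (limma, adjusted p = 0.508). Wild-type array 3, at 124.5, was well above the other 3 at 67.4 to 78.0. This dimmer probe set stood at -0.25 ± 0.25 with the Xist-high term (limma, adjusted p = 0.746).

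**Figure D2:**
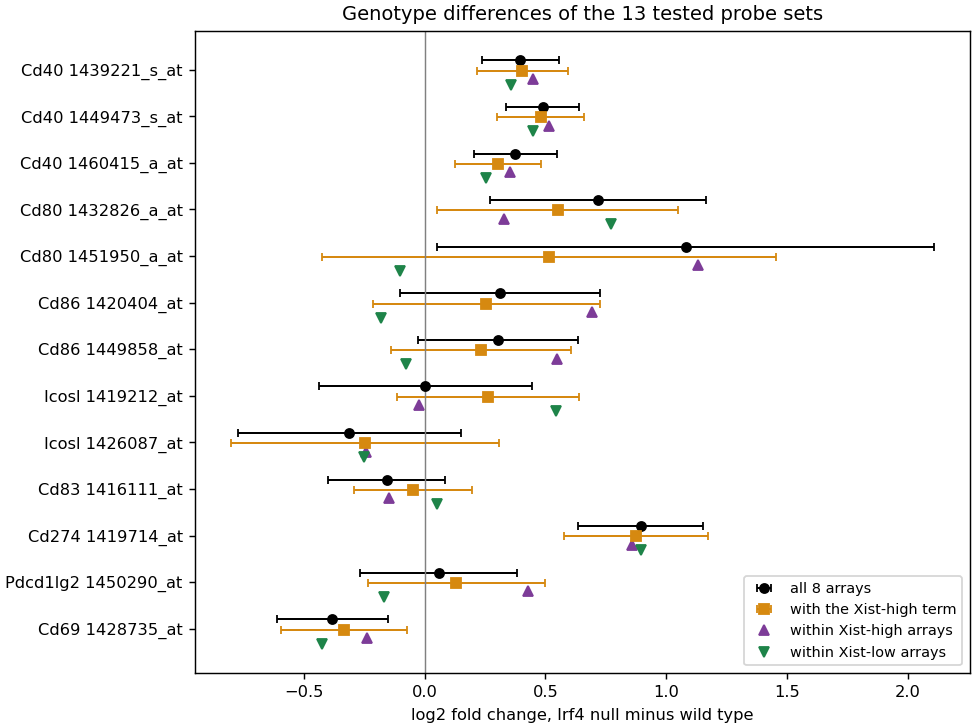
Log2 fold change (horizontal axis, Irf4 null minus wild type) of the 13 tested probe sets. Black circles are all 8 arrays and orange squares the fit with the Xist-high term, both with 95% intervals. Triangles are values within the Xist-high (up) and Xist-low (down) arrays. Cd274, the 3 Cd40 probe sets and Cd80 1432826_a_at lie above 0 in all 4, and Cd69 and Icosl 1426087_at below 0 in all 4. Cd86, Pdcd1lg2, Cd83, Cd80 1451950_a_at and Icosl 1419212_at change sign between the Xist classes.

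Cd274 and Pdcd1lg2, which encode PD-L1 and PD-L2, are neighbours on chromosome 19 with 0 protein-coding genes between them in the RefSeq table. Cd274 read 1405, 1419, 1338 and 1641 in Irf4 null, against 643, 779, 934 and 755 in wild type. The lowest Irf4 null array stood far above the highest wild-type array. Means were 1451 ± 132 in Irf4 null and 778 ± 120 in wild type (SD, n = 4 each), a log2 fold change of 0.89 ± 0.12 (limma, adjusted p = 0.0021). It was as large with the Xist-high term, 0.88 ± 0.14 (limma, adjusted p = 0.00656), within the Xist-high arrays, 0.86 (adjusted p = 0.0897), and within the Xist-low arrays, 0.89 (adjusted p = 0.0916). The within-class values each rest on a lone array of one genotype. Macrophages and dendritic cells also carry PD-L1. On the Xist-low arrays the summed monocyte and macrophage markers were 30056 to 34139 in Irf4 null and 39201 in wild type. On the Xist-high arrays they were 16381 in Irf4 null and 11553 to 15966 in wild type. Summed dendritic cell markers, Irf4 null before wild type, were 11397 to 11983 and 14955 (Xist-low) and 8649 and 7961 to 8961 (Xist-high). Summed NK cell markers, in that order, were 7907 to 12641 and 7091 (Xist-low) and 4034 and 2128 to 2683 (Xist-high). Much of the monocyte and macrophage sums was Lyz2, and much of the dendritic cell sums was Cst3. Single markers went both ways over all arrays. Spic stood at 1.84 (called higher), Adgre1 at 0.88, C1qa at -0.51 and C1qc at -0.73. Of the dendritic cell markers, the defining Itgax stood at 0.72, Cd209a at -0.52 and Clec10a at -0.53, all not called. The part of each cell type in the Cd274 value was not tested. With the mean of the other-cell markers as a covariate Cd274 stood at 0.89 ± 0.14 (limma, adjusted p = 0.00687).

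Pdcd1lg2 behaved otherwise. It read 616, 386, 497 and 473 in Irf4 null, against 409, 507, 531 and 430 in wild type, with the genotypes fully intermixed. The log2 fold change was 0.06 ± 0.15 (limma, adjusted p = 0.892), and its interval, from -0.27 to 0.38, does not reach the estimate for Cd274. Pdcd1lg2 stood at 0.13 ± 0.17 with the Xist-high term (limma, adjusted p = 0.805). It was 0.43 within the Xist-high arrays and -0.17 within the Xist-low arrays, each resting on a lone array of 1 genotype. The difference between the changes of Cd274 and Pdcd1lg2 was not itself tested.

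The promoters of this pair are shown because the genes lie side by side and one passed while the other did not. They are RefSeq windows of the build GRCm38.p6, from 250 bases before to 50 bases after the start site, on the plus strand at chr19:29367188-29367487 for Cd274 and chr19:29410669-29410968 for Pdcd1lg2, and capitals mark a motif match.
Cd274: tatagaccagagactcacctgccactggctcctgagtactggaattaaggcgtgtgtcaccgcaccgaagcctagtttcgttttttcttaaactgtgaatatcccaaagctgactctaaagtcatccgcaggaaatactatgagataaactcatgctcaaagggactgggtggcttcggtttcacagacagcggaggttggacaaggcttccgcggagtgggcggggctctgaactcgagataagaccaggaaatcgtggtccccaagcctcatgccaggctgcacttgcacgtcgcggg
Pdcd1lg2: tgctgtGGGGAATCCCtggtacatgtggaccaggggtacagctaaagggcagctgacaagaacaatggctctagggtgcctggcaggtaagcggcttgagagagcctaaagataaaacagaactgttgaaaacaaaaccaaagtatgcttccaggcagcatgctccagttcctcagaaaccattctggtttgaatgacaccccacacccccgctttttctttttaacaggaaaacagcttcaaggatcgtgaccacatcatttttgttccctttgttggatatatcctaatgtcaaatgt

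Both strands were searched for 5 motifs of factors that act in activated B cells: the composite element of Ets factors with IRF4 or IRF8 (EICE, GGAANNGAAA), the interferon-stimulated response element (ISRE, GAAANNGAAA), the STAT element GAS (TTCNNNGAA), the AP-1 site TGANTCA and a loose NF-kappaB site (GGGNNNNNCC). Among 32851 RefSeq promoter windows of this length 2.72% held the EICE, 3.44% the ISRE, 8.30% the GAS, 7.81% the AP-1 letters and 50.8% the NF-kappaB letters. The Cd274 window held none of the 5. The Pdcd1lg2 window held one NF-kappaB match, GGGGAATCCC, at bases 7 to 16 of the window, which reads as the motif on both strands. Windows were at hand for 4 members, and of the other two, Cd80 held 2 NF-kappaB matches and an AP-1 match and Icosl held 2 NF-kappaB matches. These are matches of letters in a short window and say nothing of binding there or elsewhere.

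Cd83 and Cd69 are used as signs of activation. CD83 also holds CD86 and MHC class II at the surface by opposing their degradation, and CD69 keeps lymphocytes in tissue by pulling the sphingosine 1-phosphate receptor S1PR1 inside. Cd83 read 6445, 5384, 6840 and 5701 in Irf4 null, against 6377, 5741, 7279 and 7868 in wild type. The ranges overlapped for most of their length, and the log2 fold change was -0.16 ± 0.11 (limma, adjusted p = 0.527) with an interval from -0.40 to 0.08. With the Xist-high term Cd83 stood at -0.05 (limma, adjusted p = 0.901). Cd83 lies on chromosome 13, as Irf4 does, with 81 protein-coding genes between them.

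Cd69 read 3714, 3879, 3113 and 2839 in Irf4 null, against 4742, 4368, 3990 and 4461 in wild type. Every Irf4 null array was below every wild-type array, by a small margin at the nearest pair. Means were 3386 ± 491 and 4390 ± 311, Irf4 null before wild type (SD, n = 4 each). The log2 fold change was -0.38 ± 0.10, with an interval from -0.61 to -0.15, and did not pass (limma, adjusted p = 0.0784; unadjusted p = 0.00394). Of the 13 tested probe sets 1, this one, separated the genotypes downward and 5 upward, namely Cd274, the 3 of Cd40 and Cd80 1432826_a_at. Over all probe sets tested 5.33% separated them downward and 5.48% upward. With the Xist-high term Cd69 stood at -0.33 (limma, adjusted p = 0.22), and it was negative in each of the 22 alternative fits and called in none.

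**Figure D3:**
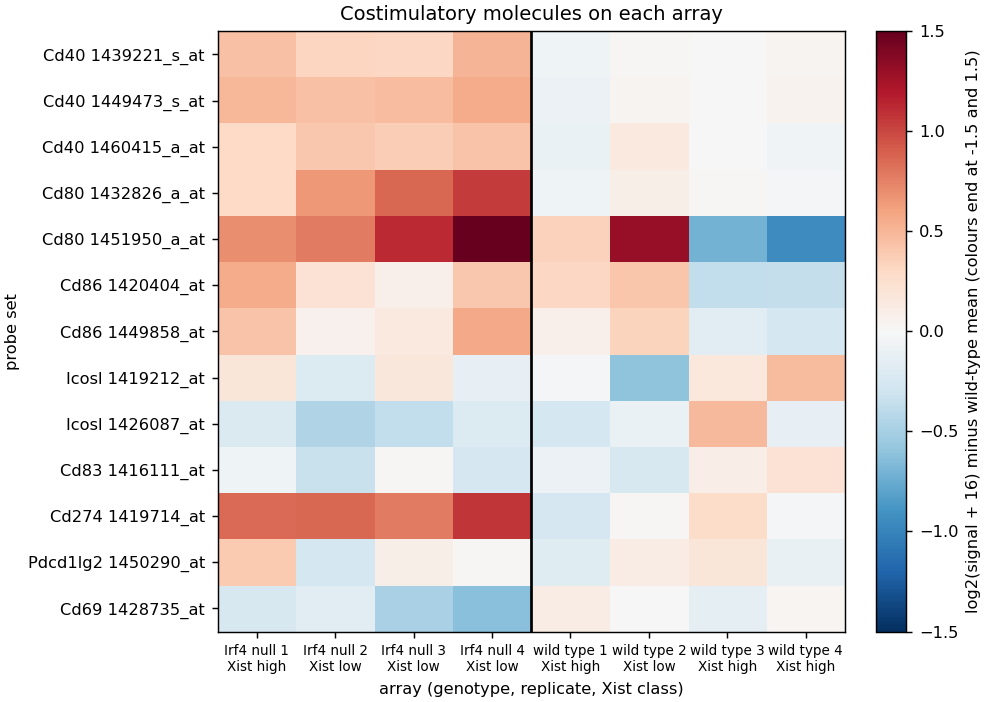
Each cell is 1 array (columns, Irf4 null left of the line and wild type right of it, with Xist class) and 1 tested probe set (rows); colour is log2(signal + 16) minus the wild-type mean. The Cd40, Cd274, Cd80 and Cd86 rows are red on all 4 Irf4 null arrays and the Cd69 and Icosl 1426087_at rows are blue on all 4, while Cd86 and Cd80 1451950_a_at are red on wild-type arrays 1 and 2 as well.

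The genes whose values over the 8 arrays were most like those of the called members were taken at 1 probe set per gene from 11802 genes. Cd274 correlated best with Flacc1 (Pearson r = 0.984), Insl6 (0.978) and Zbp1 (0.978), a sensor of nucleic acids that interferon induces. Cd40 correlated best with Gm6377 (0.990), Dph5 (0.982) and the calcium channel subunit gene Cacnb4 (0.978). Each of these 6 genes rose itself, by 0.75 to 2.90 on the log2 scale, so the correlation includes the genotype difference they share with the member, and n is only 8 arrays; likeness within a genotype was not computed. Insl6 lies on chromosome 19 with 2 protein-coding genes between it and Cd274. It averaged 306 in Irf4 null and 175 in wild type and rose by 0.75 ± 0.14 (limma, adjusted p = 0.0141). Plgrkt, which adjoins Cd274 on that side, stood at 0.26 ± 0.13 (limma, adjusted p = 0.371).

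The genes that act with the 8 members were read in 7 lists at 1 probe set per gene. Among the 11802 genes read this way 2.67% passed upward and 1.7% downward, with a median log2 fold change of 0.02, and of the 8 members 2 passed upward, with a median of 0.19. Of 23 genes of CD40 signalling and its NF-kappaB targets 3 rose and 0 fell (median -0.01; 20 did not pass). Ccl22, a chemokine that draws T cells and a CD40 response gene, averaged 204 ± 24.1 in Irf4 null and 54.4 ± 5.99 in wild type (SD, n = 4 each) and rose by 1.64 ± 0.16 (limma, adjusted p = 0.000378). Ebi3, a subunit of the cytokines IL-27 and IL-35, averaged 837 ± 60.5 in Irf4 null and 375 ± 50.7 in wild type and rose by 1.13 ± 0.11 (limma, adjusted p = 0.000421). The adaptor gene Traf1 rose by 0.71 ± 0.13 (limma, adjusted p = 0.0117), and its second tested probe set was also called higher. Of the core of the pathway, Traf2 stood at 0.12, Traf6 at -0.16, Map3k14, the kinase NIK, at -0.11, Nfkb2 at 0.15, Relb at 0.05 and Nfkbia at -0.05, none of them called.

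Among the 12 genes of MARCH ligases and MHC class II, 1 fell and 0 rose (median -0.03; 11 did not pass). Marchf1, the ubiquitin ligase that removes CD86 and MHC class II from the surface of B cells, averaged 4763 ± 428 in Irf4 null and 6755 ± 612 in wild type (SD, n = 4 each). It fell by 0.50 ± 0.09 (limma, adjusted p = 0.0111), and its other tested probe set was also called lower. The class II genes H2-Aa (-0.11), H2-Ab1 (-0.03) and H2-Eb1 (-0.005) and their transactivator Ciita (-0.08) were not called. RNA levels do not show how much CD86 or class II stood at the cell surface.

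Among 16 further genes of the B7 family and its partners 1 fell and 0 rose (median 0.22; 15 did not pass). The gene that fell was Cd200, whose protein restrains myeloid cells through its receptor. It averaged 871 ± 189 in Irf4 null and 1949 ± 524 in wild type (SD, n = 4 each), a fall of 1.14 ± 0.20 on the log2 scale (limma, adjusted p = 0.0126). Btla, an inhibitory receptor of B and T cells, was at -0.26 (adjusted p = 0.0982). The T cell receptors Cd28 (0.95, adjusted p = 0.437) and Icos (0.77, adjusted p = 0.181) were not called. T cell markers had a median log2 fold change of 0.89, and 0 of 12 were called (limma; 5 at an unadjusted p below 0.05). Their summed signals overlapped, at 6964 to 18084 in Irf4 null and 7245 to 8860 in wild type. Much of these sums was Cd2, which averaged 5038 and 5821 in the same order and stood at -0.23. The defining marker Cd3e averaged 137 ± 118 and 51.3 ± 42.0 in that order. The part of T cells in these values was not tested.

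None of 8 ligands and receptors of the TNF superfamily was called (limma; 3 at an unadjusted p below 0.05), with a median of 0.36. Tnfsf9, the ligand of the costimulatory receptor 4-1BB, averaged 72.1 in Irf4 null and 153 in wild type, with no overlap between arrays, and stood at -1.17 (adjusted p = 0.186). Of 18 adhesion and SLAM molecules 1 rose and 0 fell (median 0.22; 17 did not pass). Itgal, the LFA-1 chain that binds ICAM-1 on the partner cell, averaged 4846 ± 326 in Irf4 null and 3493 ± 483 in wild type (SD, n = 4 each) and rose by 0.48 ± 0.10 (limma, adjusted p = 0.0229). Its other tested probe set stood at 1.07 and was not called. With the Xist-high term Itgal stood at 0.35 and was not called (limma, adjusted p = 0.0563).

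Of 25 genes of the B cell activation response 1 rose and 0 fell (median 0.17; 24 did not pass). Nr4a1, an immediate early gene of antigen receptor signalling, averaged 1523 ± 296 in Irf4 null and 1002 ± 125 in wild type (SD, n = 4 each; log2 fold change 0.58 ± 0.14, limma, adjusted p = 0.0487) and lost its call in 12 of 22 alternative fits. S1pr1, whose protein CD69 opposes, stood at 0.27 (adjusted p = 0.246). Among 16 interferon regulators, which include factors known to act on Cd274 and Cd69, 3 rose and 0 fell (median 0.16; 13 did not pass). Irf7 rose by 1.09 ± 0.14 (limma, adjusted p = 0.00181), the class I transactivator gene Nlrc5 by 0.80 ± 0.13 (adjusted p = 0.00821) and the feedback inhibitor gene Socs3 by 0.59 ± 0.11 (adjusted p = 0.016). Socs3 lost its call in 7 of 22 alternative fits, among them the Xist-high term (0.53, limma, adjusted p = 0.0546) and the other-cell covariate (0.49, adjusted p = 0.066), and of its 2 other tested probe sets 1 was called higher. Irf1, which acts on the Cd274 promoter in interferon-treated cells, was at 0.21 (adjusted p = 0.345). Other genes of this list that were not called went both ways. Jak1 (-0.24), Ifnar1 (-0.29) and Stat2 (-0.29) were lower without overlap between genotypes, and Tyk2 (0.22) was higher without overlap. The strip plot of partner genes shows these lists beside the 8 members.

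**Figure D4:**
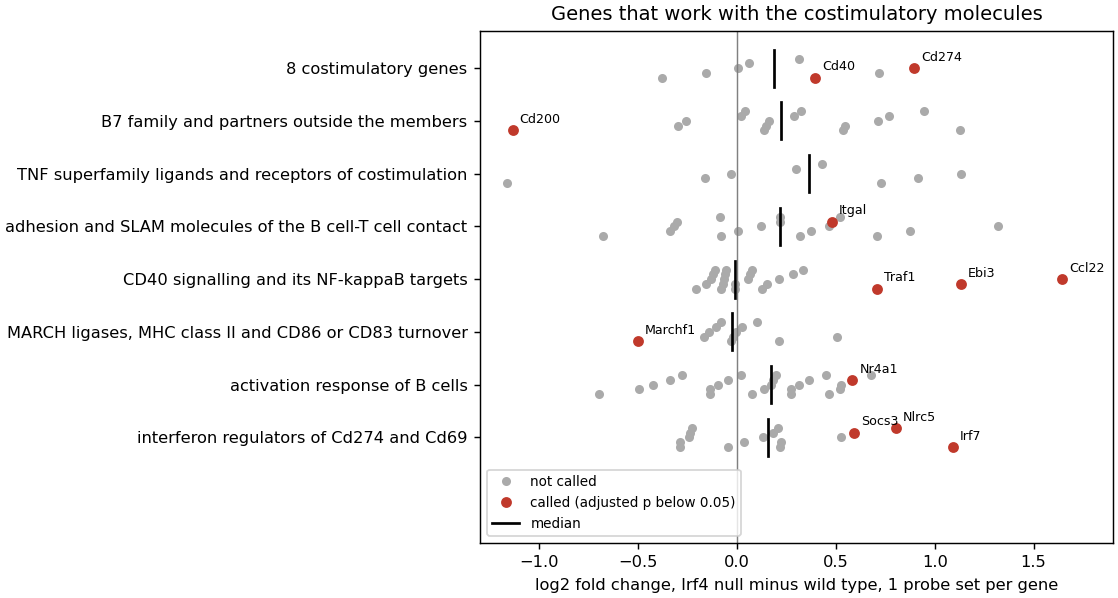
Log2 fold change (horizontal axis, Irf4 null minus wild type) of single genes, 1 probe set each, for the 8 costimulatory genes and 7 lists of genes that act with them. Red points were called at an adjusted p below 0.05, grey points were not, and black bars are medians; Cd40 and Cd274 are the called members, and Ccl22 (1.64) and Cd200 (-1.14) the called genes farthest from 0 on each side.

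Markers of other cells and of B cell subsets were read as sums of signals. Of 8 NK cell markers 2 were called higher (limma; 7 at an unadjusted p below 0.05), with a median log2 fold change of 1.23. Their sums were 4034 to 12641 in Irf4 null and 2128 to 7091 in wild type. Of 13 monocyte and macrophage markers 1, Spic, was called higher, with sums of 16381 to 34139 in Irf4 null and 11553 to 39201 in wild type, and the defining Csf1r averaged 5907 ± 2333 in Irf4 null and 4195 ± 3552 in wild type (SD, n = 4 each). None of 10 dendritic cell markers was called (limma; 1 at an unadjusted p below 0.05), with sums of 8649 to 11983 in Irf4 null and 7961 to 14955 in wild type. None of 10 neutrophil markers was called (limma; 0 at an unadjusted p below 0.05), but all 10 had positive log2 fold changes, with a median of 1.35 and sums of 11066 to 76951 in Irf4 null and 5784 to 55072 in wild type. All 6 platelet markers were positive too, with a median of 0.50, 5 at an unadjusted p below 0.05 and 1 called higher, and their sums did not overlap, at 3794 to 6027 in Irf4 null and 2496 to 3432 in wild type. None of 6 erythroid markers was called (limma; 0 at an unadjusted p below 0.05), with a median of 0.20. No defining marker was at 0 on any array, but Cd3e read 9.37 on wild-type array 2, under the dim level of 42.9. Detection calls were not used, so a marker signal above 0 does not show that its cells were present. In the fit with the mean of 65 such markers as a covariate, 3 of the 13 member probe sets were called, Cd274 and 2 of Cd40.

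Marker RNA of B cell subsets was read in the same way. The summed signal of 11 marginal zone markers was 60210 to 66560 in Irf4 null and 39734 to 48758 in wild type, and 6 of the 11 were called higher. Of the other 5, Mzb1 stood at 0.01 and Cd36 at -1.07 without overlap between genotypes (limma, adjusted p = 0.113). The summed signal of 5 follicular markers was 24304 to 31950 in Irf4 null and 34082 to 38133 in wild type, with 1, Fcer2a, called lower and Cr1l at -0.008. Of 6 plasma cell markers 3 were called lower, and the defining Jchain averaged 43.6 ± 12.1 in Irf4 null and 5064 ± 5182 in wild type (SD, n = 4 each). The genotypes did not overlap in any of these 3 sums, as they did not for Cd40 and Cd274, and the part of subset shares in the members' values was not tested.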

How the data were processed

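RNA from 8 B cell samples was hybridised to 1 Affymetrix mouse array each from 6 µg of total RNA, per the labels' protocols. The deposited intensity values, 1 per probe set, are MAS5 signals of the authors, according to the submitters' processing notes. No version is named in the sources. The trimmed mean (2% off each end) was 500.003 on every array, and the values were used without another normalization. Detection calls were not used. No array columns were identical (0 of 8), and array correlations were at least 0.966. The number of arrays limits the precision.

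Gene names came from the platform's annotation (34958 with 1 symbol, 932 with several, 9211 unnamed here), and 34754 of the 34958 symbols were updated through RefSeq gene identifiers. After 64 control probe sets were dropped, log2(signal + 16) was taken, the lowest 40% by mean were left out, and 27022 were tested with limma 3.58.1 (lmFit, eBayes with a trend) in R 4.3.3, with Benjamini-Hochberg adjustment at 0.05. The fit was tested on simulated data. Dim members had an exact permutation test (SciPy 1.17.1). A gene is represented by its brightest tested probe set. Xist-high means a Xist signal over 1000. Alternatives changed the pseudocount (1, 64), the filter, the scaling (quantile, common median), the variance model, array weights, the replicate block, the Xist class, a covariate of other cells' markers and the threshold, or left out 1 array. Figures used matplotlib 3.10.9.

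Members, lists, the Xist class and alternatives were chosen with earlier results of these data known. Named are all members, Irf4, up to 4 called genes of each partner list by adjusted p, the 3 genes most like each called member, and defining markers; other genes of the lists were singled out after their values were seen.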

Additional observations from a re-analysis of the deposited data

Results flagged for a closer look

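In 2 of 32 groups of 4 arrays, 1 array lay far from the other 3 relative to the group's range; chance alone gives about 1 in 20. Both are dim probe sets of Cd80 in wild type. For 1454372_at wild-type array 3 read 61.5 against 28.33, 29.32 and 29.86 on the others. For 1427717_at wild-type array 4 read 61.1 against 15.99, 20.68 and 21.15. Neither probe set entered the limma fit.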

How the results depend on the processing

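All 13 tested member probe sets kept their direction in every alternative fit except as follows, and no reversed value was called. Within the Xist-low arrays Cd80 1451950_a_at stood at -0.10, Cd86 at -0.18 (1420404_at) and -0.078 (1449858_at), Cd83 at 0.050 and Pdcd1lg2 at -0.17. Pdcd1lg2 was also -0.0018 without wild-type array 1 and -0.052 without Irf4 null array 1 (range -0.052 to 0.17). Icosl 1419212_at, at 0.003, turned to -0.00046 with a pseudocount of 64, -0.015 with quantile normalization, -0.028 with a common median, -0.11 with array weights and -0.022 within the Xist-high arrays, and ranged from -0.20 to 0.16 with 1 array left out. A stricter filter on dim signals left out Cd80 1432826_a_at and 1451950_a_at, Icosl 1426087_at and Ccl22, and a pseudocount of 1 left out Cd80 1451950_a_at, so these have no value there. The dim Cd80 sets changed sign with 1 array left out, between -0.11 and 0.29 (1454372_at) and between -0.47 and 0.092 (1427717_at).

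The count of member probe sets called higher, 4, was 2 without a variance trend, 0 within either Xist class, 2 at an adjusted p below 0.01, and 2 (without wild-type array 1) to 5 (without wild-type array 2) with 1 array left out; none was called lower in any fit. Cd274 and Cd40 1449473_s_at lost their calls only within the Xist classes, and Cd40 1460415_a_at lost its call in 11 of 22 alternatives. Over all probe sets 543 were called higher and 407 lower. These became 355 and 200 without a variance trend, 1001 and 745 with array weights, 193 and 129 within the Xist-high arrays, 62 and 55 within the Xist-low arrays, and 213 and 117 at an adjusted p below 0.01. Those called lower numbered 256 with the Xist-high term and 258 with the markers of other cells as a covariate. With 1 array left out, 283 to 1297 were called higher and 183 to 875 lower: 1297 and 875 without wild-type array 2, and 283 to 361 and 183 to 207 without wild-type arrays 1, 3 or 4 or Irf4 null arrays 2 or 4. Fewer arrays explain part of the lower counts by construction; beyond that the cause was not tested. Taking the brightest probe set of a gene or the mean of its probe sets gave 2 member genes each.

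The replicate numbers did not pair the arrays: deviations of same-numbered arrays correlated at 0.24, 0.28, -0.03 and -0.08, and Irf4 null arrays 3 and 4 correlated best with another number. With the replicate block 690 were called higher and 478 lower, 4 members higher and 0 lower, and Cd69 reached an adjusted p of 0.0504 (limma). Cd80 and the dimmer Icosl probe set lay near the dim level, and no detection calls were used for them.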
